A study of Mus musculus with 8 samples.

Results

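Alox5, Scd1, Scd2, Blk, Msi2, Ctnnb1, Pml, Sirt1, Hif1a and Smo have each been linked in earlier work to the stem cells of chronic myelogenous leukaemia (CML), and their transcripts were followed here in RNA sequencing of mouse bone marrow. The 10 genes were taken by symbol from the 20207 genes listed for each of 8 libraries. They had been gathered as genes that CML stem cells need, a description that holds as background for most of them but not for Blk or Scd1, which have been described as restraining CML stem cells.

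CML is driven by the fused tyrosine kinase BCR-ABL1, and it persists under kinase inhibitors because a small pool of primitive, slowly dividing cells keeps the disease going. The genes touch that pool at different points. Alox5 encodes 5-lipoxygenase, which turns arachidonic acid into leukotrienes. Scd1 and Scd2 encode stearoyl-CoA desaturases, which place a double bond into saturated fatty acids. Blk is a Src family kinase best known from B cells, Smo passes on the Hedgehog signal and Ctnnb1 encodes β-catenin, the effector of canonical Wnt signalling. Msi2 is an RNA-binding protein that acts on Numb, Pml organizes nuclear bodies, Sirt1 removes acetyl groups from p53 and other proteins, and Hif1a encodes the oxygen-regulated subunit of HIF-1.

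CML cells came from mice carrying Tal1-tTA and TRE-BCR-ABL1, in which the Tal1 control elements drive a transactivator that switches BCR-ABL1 on once doxycycline is withdrawn, and the study's methods give Tal1-tTA littermates as the controls. Within the cKit+Lineage-Sca-1+ cells, those with CD150 but without CD48 or CD135 were sorted as long-term (LT) stem cells, and those lacking all of CD150, CD48 and CD135 as short-term (ST) stem cells, beside KLS- progenitors (cKit+Lineage-Sca-1-). There were 2 libraries each of LT-CML stem cells and of LT cells from controls (LT-HSCs), and 1 library each of ST-HSCs, ST-CML stem cells, normal KLS- cells and CML KLS- cells. The labels give C57BL/6 for every sample, with an age of 6 months for LT-HSC library 2, 2 months for the other normal libraries and none for CML. The methods instead describe an FVB/N background. They give CML mice and littermates the same age range of some weeks, with cells taken at a fixed time after doxycycline withdrawal. The 6 months of LT-HSC library 2 lie outside that range. Since labels and methods differ, disease state cannot be told apart from a possible difference in strain or age. Nothing in the labels says how many animals went into a library.

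Values are RPKM, reads scaled to transcript length and to the mapped reads of the library, which allow levels of different genes to be compared per length. Depth was estimated at 17.8 to 23.8 M reads per library, so that 3 reads in a gene of 1 kb corresponded to 0.126 to 0.169 RPKM. Slamf1, which encodes CD150, fell in ST relative to LT libraries by 2.83 on the log2 scale (adjusted p = 0.00123, limma), and Ly6a, which encodes Sca-1, fell in KLS- relative to stem libraries by 3.34, as their gates imply. Flt3, which encodes the CD135 that both stem gates exclude, was nevertheless at 61.6 and 71.6 RPKM in the ST libraries. Cd48, whose protein both gates also exclude, was at 41.79 RPKM in ST-HSCs and 45.15 RPKM in ST-CML stem cells. It was higher in ST than in LT libraries by 1.67 (adjusted p = 0.0499, limma). Among the LT libraries, those numbered 2 stood apart from those numbered 1. Granulocyte marker transcripts summed to 4165 RPKM in LT-HSC library 2 and 3831 RPKM in LT-CML library 2, against 601 and 321 RPKM in the libraries numbered 1, with Y-linked transcripts at 79.2 and 47.7 RPKM in the libraries numbered 2 and at most 0.154 RPKM in any other. Of the granulocyte list, Mpo ranged from 5.20 RPKM in LT-CML library 1 to 1291 RPKM in LT-CML library 2 among these libraries. The 2 high sums differed in makeup. In LT-HSC library 2 Mpo was at 69.9, S100a8 at 1802 and Ngp at 688 RPKM. In LT-CML library 2 S100a8 was at 588.5 and Ngp at 117 RPKM. The X-linked transcript Xist also differed between them, at 0.154 RPKM in LT-HSC library 2 and 13.52 RPKM in LT-CML library 2. In the other libraries Xist was at 12.44 to 30.84 RPKM. The LT libraries may thus not be matched for sex, which was not a covariate.

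The desaturase genes lie side by side on chromosome 19 of the mm9 assembly, and they are so alike that some single reads would match more than 1 of them. Reads were paired, and whether the mate of such a read settles its origin was not tested. Scd2 (chr19:44368166-44381354, plus strand) and Scd1 (chr19:44468941-44482199, minus strand) share 965 of 1068 aligned coding bases (90.4%), with an identical run of 147 bases, longer than the 100-base reads. Part of that run, in exon 4 of 6, is printed below 5′ to 3′ to show where single reads could not be told apart, with capitals for bases that differ from Scd1. Scd1 lies here at chr19:44476193-44476252, Scd2 at chr19:44374235-44374294, and the neighbouring Scd4 at chr19:44413536-44413595.
Scd1, exon 4: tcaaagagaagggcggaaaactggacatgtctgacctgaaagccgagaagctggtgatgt
Scd2, exon 4: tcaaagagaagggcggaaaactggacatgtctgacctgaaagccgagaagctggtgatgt
Scd4, exon 4: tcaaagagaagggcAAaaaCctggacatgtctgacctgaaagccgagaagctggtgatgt

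Exon 2 holds the coding stretch in which Scd1 and Scd2 differ most, with 14 of 60 bases, and reads from it could be assigned. It lies at chr19:44481101-44481160 in Scd1, chr19:44369493-44369552 in Scd2 and chr19:44408568-44408627 in Scd4, with capitals again marking differences from Scd1.
Scd1, exon 2: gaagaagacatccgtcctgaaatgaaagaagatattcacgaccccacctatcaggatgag
Scd2, exon 2: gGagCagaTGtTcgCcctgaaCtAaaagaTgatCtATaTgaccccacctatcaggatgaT
Scd4, exon 2: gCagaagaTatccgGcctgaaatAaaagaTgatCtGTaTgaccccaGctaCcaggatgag

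Over the whole Scd1 transcript, 125 of 4737 windows of 100 bases (2.64%) also occurred in Scd2, Scd3 or Scd4, and 48 of them (1.01%) occurred in Scd2. Among the other genes, 17 Smo windows (0.462%) recurred in the predicted gene Gm4066, and Alox5, Blk, Msi2, Ctnnb1, Pml, Sirt1 and Hif1a had none. The search set 1 coding transcript of each gene against annotated coding transcripts, so its other exons and non-coding copies were not covered. For Msi2 the transcript searched had 1855 bases, beside an exon length of 10663 bases. How reads with several matches were counted is not given in the sources used here.

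**Figure D1:**
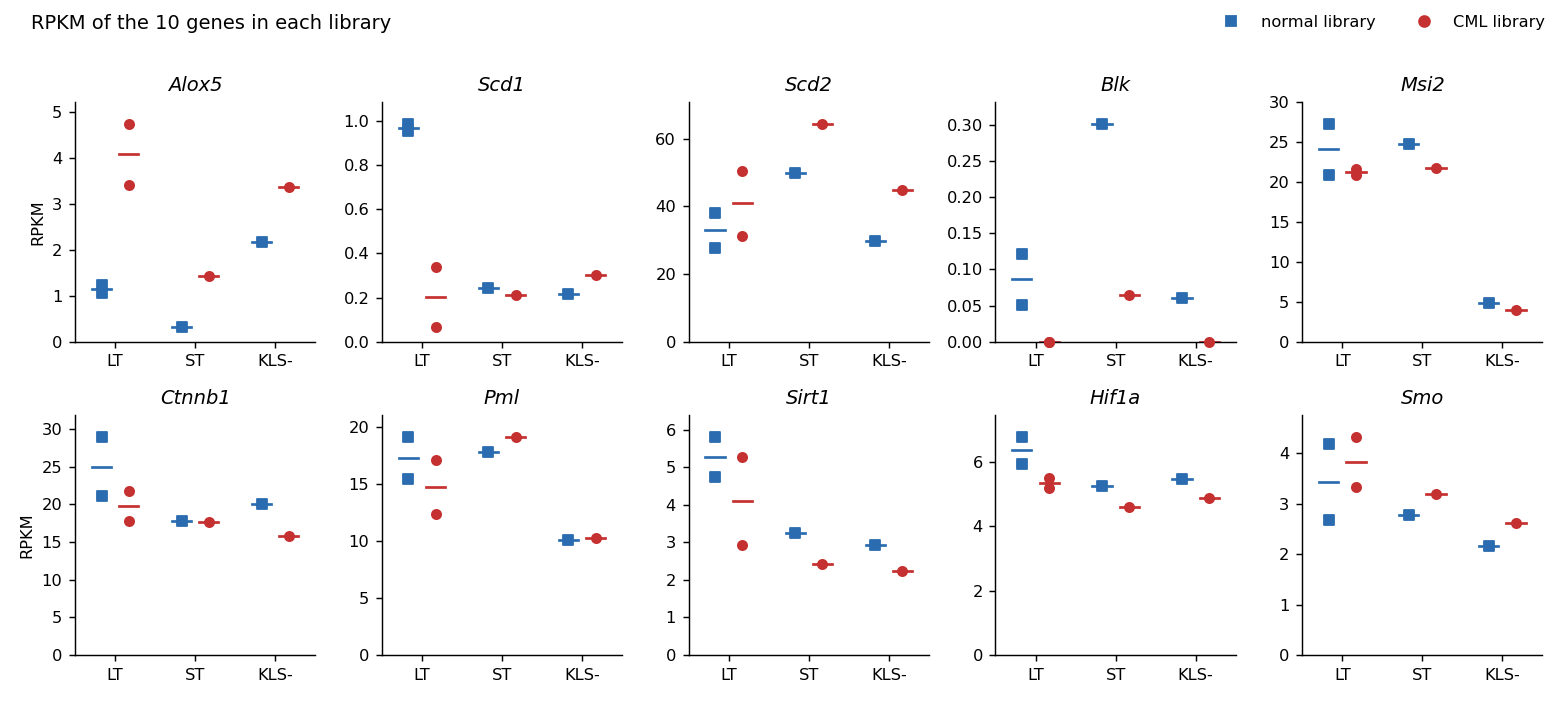
RPKM (vertical axis, from 0, with a scale of its own in each panel) of the 10 genes in LT, ST and KLS- cells. Blue squares are normal libraries, red circles CML libraries and short lines population means. Alox5 lies higher in CML than in normal cells of each population, Scd1 lies high in the 2 normal LT-HSC libraries, and Msi2 lies low in both KLS- libraries.

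Alox5 (chr6:116360095-116411196, minus strand) was higher in CML than in normal cells of every population. In normal mice it was at 1.06 and 1.23 RPKM in the LT-HSC libraries, 0.320 RPKM in ST-HSCs and 2.18 RPKM in KLS- cells. In CML it was at 4.75 and 3.42 RPKM in the LT libraries, 1.44 RPKM in ST cells and 3.38 RPKM in KLS- cells. All 3 CML stem libraries lay above all 3 normal HSC libraries, the lowest CML value being that of ST cells, and 6.92% of all tested genes were likewise higher without overlap. Higher values in all of LT, ST and KLS- cells were found for 9.41%. The read counts behind these values were about 25 in ST-HSCs and 87 to 403 in the other libraries.

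Mean Alox5 RPKM was 3.56 times as high in LT-CML stem cells (4.08 ± 0.94, SD, n = 2) as in LT-HSCs (1.15 ± 0.12, SD, n = 2). The difference on the log2(RPKM + 1) scale was 1.23 ± 0.20 (SE, adjusted p = 0.0329, limma with all 8 libraries). Alox5 was the 1 call (adjusted p below 0.05) among the 9 tested genes, where 1.73% of all 12561 tested genes were called. That call was lost when any of the 4 LT libraries was left out, with adjusted p from 0.153 to 0.267, and with no minimum on RPKM (0.289). The LT-CML to LT-HSC ratio was 4.46 between the libraries with low granulocyte sums and 2.78 between those with high sums. The high sums differed in makeup, so the latter libraries are not matched for granulocyte transcripts. Markers of other cells also moved between these libraries. Flt3, which was high in ST cells, was higher in LT-CML stem cells than in LT-HSCs by 1.95 ± 0.28 (adjusted p = 0.0184, limma). Cd48, whose protein the gate likewise excludes, was at 10.5 and 5.17 RPKM in LT-HSCs, 16.8 and 29.5 RPKM in LT-CML stem cells and 174.3 and 128.8 RPKM in KLS- cells, with an uncalled LT difference of 1.47 ± 0.35 (adjusted p = 0.109). Slamf1, whose protein the LT gate requires, was higher in LT-CML stem cells too, also uncalled (1.21 ± 0.25, adjusted p = 0.0652, limma). It was at 14.3 and 10.7 RPKM in LT-HSCs and 35.45 and 25.36 RPKM in LT-CML stem cells. Of the erythroid and megakaryocyte markers, 1 each was called, both lower. Car1, an erythroid carbonic anhydrase, fell from 30.6 and 26.7 to 2.71 and 6.11 RPKM (-2.53 ± 0.30, adjusted p = 0.00946), the 1 call among 6 tested erythroid markers. Ppbp, a platelet chemokine, fell from 4.04 and 4.73 to 1.16 and 1.78 RPKM (-1.13 ± 0.20, adjusted p = 0.0415), the 1 call among 6 megakaryocyte markers. That list did not fall as a whole, with a median LT difference of 0.20. Itga2b, uncalled, was at 26.7 and 15.1 RPKM in LT-HSCs and 51.0 and 38.4 RPKM in LT-CML stem cells. No basophil and mast cell or T-cell marker was called, and their most abundant genes, Gata2 and Cd4, differed by -0.06 (adjusted p = 0.964) and 0.50 (adjusted p = 0.509). Gata2 ran against its list by stage, at 34.1 and 49.4 RPKM in LT-HSCs and 9.28 and 4.52 RPKM in KLS- cells. Of the 7 basophil and mast cell markers, 6 rose in KLS- against stem cells and 1 fell, beside 48.7% of all genes called. Their median LT difference was 0.056. Fcer1a, uncalled, was at 0.538 and 1.675 RPKM in LT-HSCs and 3.534 and 4.555 RPKM in LT-CML stem cells. The part of other cells within the gate in the Alox5 difference was not tested, and in bulk samples a change in the mix of cells and a change per cell cannot be told apart.

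With LT and ST libraries pooled, the Alox5 difference between CML stem cells and normal HSCs was 1.12 ± 0.34 (n = 3 and 3) and did not pass the test (adjusted p = 0.191, limma). An exact two-sided permutation test gave p = 0.1, the smallest value that 3 against 3 libraries allow. With cell type as a covariate the same difference passed (adjusted p = 0.00691). In ST cells the CML value was 4.51 times the normal one, and in KLS- cells 1.55 times, with 1 library each and no replicate check. The difference in disease effect between KLS- and stem cells was -0.60 ± 0.34 (adjusted p = 0.99998) with a 95% interval from -1.39 to 0.18.

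Alox5 also varied with cell stage. It was lower in ST than in LT stem cells by -0.87 ± 0.17 (adjusted p = 0.0285, limma, 2 against 4 libraries with disease state as a covariate), the 1 call among the 9 genes against 4.08% of all genes. The ranges were 0.320 to 1.44 RPKM in ST and 1.06 to 4.75 RPKM in LT libraries, and the ST-CML value lay above both LT-HSC values. KLS- cells exceeded stem cells by 0.62 ± 0.19 (adjusted p = 0.0233), a difference of 0.29 without normal KLS- cells and 0.95 without CML KLS- cells. Both stage calls were lost without some single libraries: the ST call without ST-HSC, ST-CML or either LT-CML library (adjusted p = 0.0585 to 0.342), and the KLS- call without ST-HSC, ST-CML or normal KLS- cells (0.0507 to 0.357). With no minimum on RPKM the adjusted p was 0.142 for ST and 0.0632 for KLS- cells. Population means ran from LT-CML through CML KLS-, normal KLS-, ST-CML and LT-HSC down to ST-HSC, and ST-CML and LT-HSC were closer together than the LT-CML replicates were.

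The other genes of the leukotriene pathway were not called by disease. None of 10 tested was called between CML stem cells and normal HSCs, and 1, Alox15, had an unadjusted p below 0.05. The test was limma on 3 against 3 libraries without a cell type term, the disease comparison given for every list. Alox5ap, the membrane protein that presents arachidonic acid to 5-lipoxygenase, was the most abundant of the list at 224.3 to 282.5 RPKM in all libraries, and its difference between CML and normal stem cells was 0.04 ± 0.13 (adjusted p = 0.939). In KLS- against stem cells 4 of the 10 rose and 3 fell, where 48.7% of all genes were called. Genes outside the naming rule are given from here on for illustration and were picked after their values were seen. Lta4h, which makes leukotriene B4, rose in KLS- cells by 1.94 (adjusted p = 0.000154), and Ltc4s, which makes leukotriene C4, fell there by 1.48 (adjusted p = 0.000218).

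Scd1 ran opposite to Alox5 in LT cells. Normal LT-HSC libraries had 0.954 and 0.987 RPKM, LT-CML libraries 0.340 and 0.0681 RPKM, and the pairs did not overlap, as was so for 23% of all genes in this direction. ST-HSCs had 0.242 RPKM and ST-CML stem cells 0.211 RPKM. KLS- cells had 0.214 RPKM in normal and 0.302 RPKM in CML mice. The high value was thus seen in normal LT-HSCs and in no other population. The reads behind these values were few: 92 and 114 in the LT-HSC libraries, and 6 to 34 in each of the others.

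The LT-CML minus LT-HSC difference of Scd1 was -0.72 ± 0.15 on the log2(RPKM + 1) scale (adjusted p = 0.0749, limma), with a 95% interval from -1.08 to -0.36, and did not pass the adjusted threshold. Over all 3 against 3 stem libraries it was -0.49 ± 0.20 (unadjusted p = 0.0378, adjusted p = 0.361), and the exact permutation p was 0.2. The scale understates changes of a gene this low, and the summed reads, 228 in normal HSCs and 59 in CML stem cells, gave a depth-corrected ratio of 3.55 (95% exact interval 2.66 to 4.81, counting error alone). Multiplying the Scd2 level by the share of Scd1 windows also present in Scd2 gave 0.282 to 0.652 RPKM, more than the measured Scd1 level in 6 of the 8 libraries and less in the LT-HSC libraries. The part of shared reads in the Scd1 values was not tested.

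Scd2 was the abundant desaturase, at 28.2 to 458 times the RPKM of Scd1. It was at 37.9 and 27.8 RPKM in LT-HSCs, 49.8 RPKM in ST-HSCs and 29.6 RPKM in normal KLS- cells. CML values were 50.6 and 31.2 RPKM in LT, 64.3 RPKM in ST and 44.9 RPKM in KLS- cells. The CML library was the higher in ST and KLS- cells, while the LT libraries of both states overlapped. No test passed for the disease difference in stem cells (0.31 ± 0.30, adjusted p = 0.749, 95% interval -0.38 to 1.004, limma), nor for ST against LT cells (0.64 ± 0.21, adjusted p = 0.163). Scd2 was also not called in KLS- against stem cells (-0.30 ± 0.20, adjusted p = 0.232), but it was without LT libraries 2 (-0.44, adjusted p = 0.0124) and after quantile normalization (-0.58, adjusted p = 0.0230).

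Scd4 rose in CML stem cells. It was at 0.392, 0.368 and 0.433 RPKM in the normal HSC libraries and at 1.23, 0.947 and 1.14 RPKM in the CML stem libraries, without overlap, as were 6.92% of all genes in this direction. The difference was 0.59 ± 0.11 (adjusted p = 0.0356, limma), the 1 call among 12 tested genes of fatty acid synthesis and desaturation, where 2.34% of all genes were called. It was lost when any of the 6 stem libraries was left out (adjusted p = 0.0675 to 0.161) and without the intensity trend (0.0567). Scd3 was at 0.215 to 0.289 RPKM in normal HSC and 0.385 to 0.680 RPKM in CML stem libraries (0.28, adjusted p = 0.335). By exact windows of 100 bases, Scd3 shared sequence with Scd1 and Scd2, and Scd4 with Scd1. The longest identical coding run of Scd4 and Scd2 was 98 bases. Whether reads with mismatches were misassigned was not tested, so levels within the family are uncertain. Insig1, a sterol-regulated brake on SREBP, had a difference of -0.84 (adjusted p = 0.20), and Srebf1, which drives the pathway, one of -0.02 (adjusted p = 0.981).

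**Figure D2:**
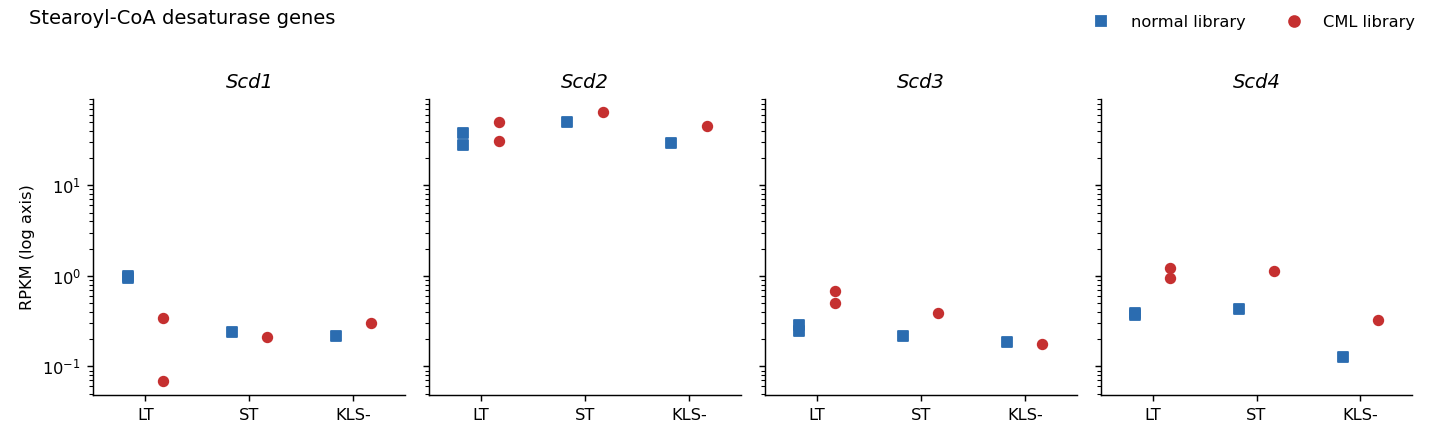
RPKM of Scd1, Scd2, Scd3 and Scd4 (log axis, shared by the panels) in LT, ST and KLS- cells, with blue squares for normal and red circles for CML libraries. Scd2 lies above the others in every library, Scd1 is highest in the normal LT-HSC libraries, and Scd4 lies higher in each CML population than in its normal counterpart.

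Blk (chr14:63991674-64036024, minus strand) was barely detected. Normal libraries held 6 and 3 reads in LT-HSCs (0.122 and 0.0508 RPKM), 14 reads in ST-HSCs (0.301 RPKM) and 3 reads in KLS- cells (0.0598 RPKM). In CML, both LT libraries and the KLS- library were at 0, which allows up to 0.0587, 0.0667 and 0.0682 RPKM by counting error, and ST cells held 3 reads (0.0650 RPKM). With a total of 0.598 RPKM over the 8 libraries Blk fell under the minimum for testing, as did none of the other genes. The reads of normal HSCs and CML stem cells, 23 against 3, had a depth-corrected ratio of 7.04 with a 95% exact interval from 2.13 to 36.6 that covers counting error alone, and 60.9% of the normal reads came from the ST-HSC library. With no minimum applied, the stem cell difference was -0.18 (adjusted p = 0.549, limma).

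Cdkn1b, which encodes the cell cycle inhibitor p27 through which Blk has been described to act, fell in CML stem cells. It was at 14.6, 15.0 and 16.0 RPKM in the normal HSC libraries and at 7.47, 5.94 and 7.36 RPKM in the CML stem libraries, and the KLS- libraries had 7.31 RPKM in normal and 3.06 RPKM in CML mice. The difference in stem cells was -1.03 ± 0.14 (adjusted p = 0.0121, limma), the 1 call among 10 tested Src family and Blk regulator genes, where 2.34% of all genes were called. It was lost without LT-HSC library 1 (0.0662), without LT-CML library 1 (0.0553) and without both LT libraries 2 (0.105), with differences from -1.13 to -0.94 over all alternatives. Pax5, a B-cell factor placed upstream of Blk, was at most 0.0888 RPKM and was not tested, and Ebf1, another, ran from 0.0220 to 1.82 RPKM without a call. Of B-cell markers, Cd79a fell in LT-CML against LT-HSCs by 1.51 (adjusted p = 0.0357) from 1.66 and 3.34 to 0.0728 and 0.331 RPKM. In ST cells, with 1 library each, it was instead higher in CML, at 6.43 against 0.201 RPKM, as was Vpreb1 at 6.48 against 1.75 RPKM. The list's summed level was 37.3 to 42.1 RPKM in normal HSC and 31.4 to 62.4 RPKM in CML stem libraries. Most of that sum was Cd79b, at 30.2 to 46.3 RPKM in all libraries, KLS- cells included. The part of B-lineage cells in the Blk values was not tested.

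Msi2 (chr11:88152884-88579827, minus strand) fell in KLS- progenitors relative to stem cells and was not called by disease. It was at 20.9 and 27.3 RPKM in LT-HSCs, 24.8 RPKM in ST-HSCs and 4.80 RPKM in normal KLS- cells. CML libraries had 20.9 and 21.7 RPKM in LT, 21.8 RPKM in ST and 3.99 RPKM in KLS- cells. All 6 stem libraries lay far above both KLS- libraries, and the mean was 5.21 times as high. For 27.7% of all genes the KLS- libraries lay lower without overlap. The KLS- minus stem difference was -2.15 ± 0.13 (adjusted p = 1.71e-05, limma), and Msi2 was called under every alternative tried. Between CML stem cells and normal HSCs it was -0.17 ± 0.14 (adjusted p = 0.711), with a 95% interval from -0.49 to 0.16.

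Of the genes acting with Msi2, none passed the test by disease. Numb, whose mRNA Musashi proteins repress, was at 4.43 to 8.09 RPKM in all libraries (CML stem minus normal HSC 0.09, adjusted p = 0.914), and the paralogue Msi1 was listed at 0 throughout. Rbpj, the DNA-binding partner of Notch and the most abundant gene of the list, had a difference of -0.01 ± 0.16 (adjusted p = 0.987). None of the 5 tested genes was called by disease, with 1, Hes1, at an unadjusted p below 0.05. Hes1 and Notch2 fell in KLS- against stem cells, 2 of 5 where 26.5% of all genes fell, with a difference of -2.49 for Hes1 (adjusted p = 0.00107).

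**Figure D3:**
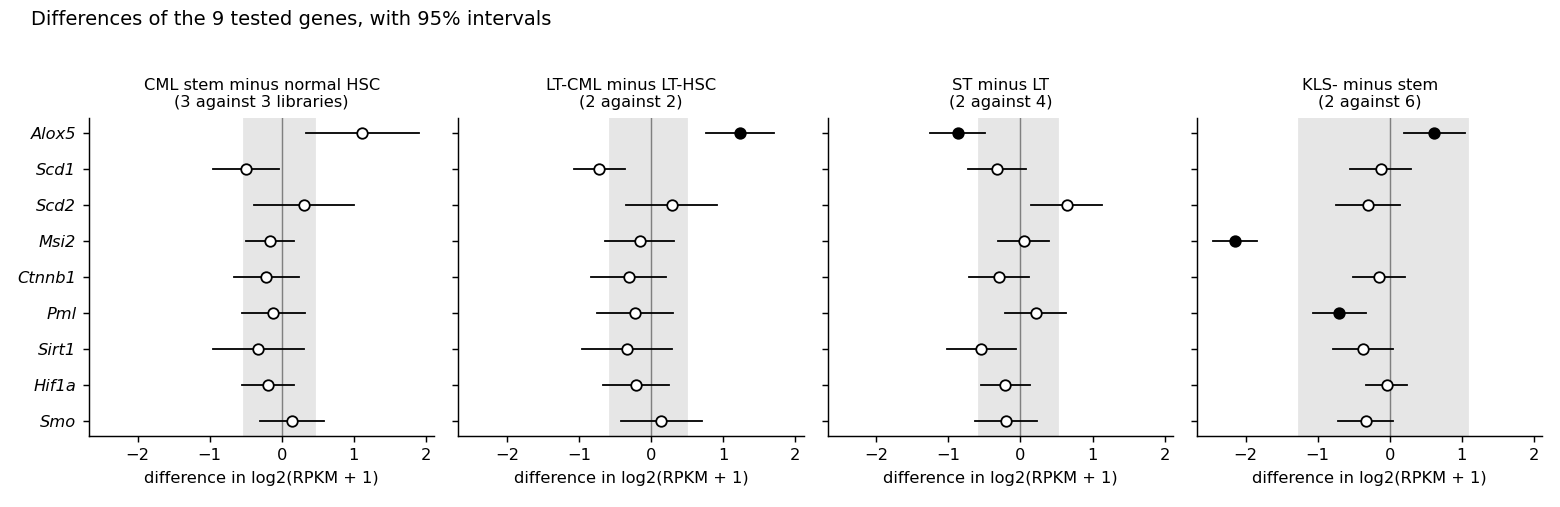
Differences in log2(RPKM + 1) of the 9 tested genes (points) with 95% intervals (lines) in 4 comparisons. Filled points passed an adjusted p of 0.05, and the grey band holds the middle 90% of all 12561 genes. Alox5 passes in 3 panels, Msi2 lies beyond the band at -2.15 in KLS- against stem cells, and Pml passes there within the band.

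Ctnnb1 (chr9:120838334-120869625, plus strand) ran from 15.7 to 29.0 RPKM. LT-HSCs had 21.1 and 29.0 RPKM, ST-HSCs 17.8 RPKM and normal KLS- cells 20.0 RPKM. LT-CML stem cells had 21.8 and 17.8 RPKM, ST-CML stem cells 17.7 RPKM and CML KLS- cells 15.7 RPKM. The groups overlapped, and no comparison called the gene: CML stem minus normal HSC was -0.21 ± 0.20 (adjusted p = 0.741, 95% interval -0.67 to 0.24, limma), and 0.017 without LT libraries 2. Of 20 other Wnt pathway genes none was called in stem cells by disease, and none had an unadjusted p below 0.05. Myc, a target gene and the most abundant of the list, ran from 45.9 to 129.9 RPKM (0.36 ± 0.28, adjusted p = 0.686). Axin2, a direct target often read as a sign of pathway activity, was at most 0.0645 RPKM. In KLS- against stem cells 9 of the 20 fell and 1 rose, beside 48.7% of all genes called and 26.5% called lower. Tcf7l2, a transcription factor that binds β-catenin, fell by 2.25 (adjusted p = 1.0e-05).

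Pml (chr9:58064986-58097593, minus strand) was lower in KLS- than in stem cells. Its levels were 19.1 and 15.4 RPKM in LT-HSCs, 17.7 RPKM in ST-HSCs and 10.04 RPKM in normal KLS- cells, and 17.1 and 12.3 RPKM in LT-CML, 19.1 RPKM in ST-CML and 10.2 RPKM in CML KLS- cells. Both KLS- libraries lay under all 6 stem libraries, as they did for 27.7% of all genes. The difference was -0.70 ± 0.16 (adjusted p = 0.00757, limma), in a comparison that called 26.5% of all genes lower. It was lost without normal KLS- cells (0.0892) or CML KLS- cells (0.0538), each of which leaves 1 KLS- library. By disease, stem cells differed by -0.12 ± 0.19 (adjusted p = 0.859). None of the 8 nuclear body genes was called by disease or had an unadjusted p below 0.05.

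Sirt1 (chr10:62781753-62844452, minus strand) was at 4.72 and 5.80 RPKM in LT-HSCs, 3.25 RPKM in ST-HSCs and 2.93 RPKM in normal KLS- cells. CML libraries had 2.93 and 5.26 RPKM in LT, 2.43 RPKM in ST and 2.22 RPKM in KLS- cells. The LT-CML replicates were further apart (0.67 on the log2 scale) than the LT-CML and LT-HSC means were (-0.33 ± 0.27, adjusted p = 0.731, limma), and LT-CML library 2 lay within the LT-HSC range. Over all stem cells the disease difference was -0.33 ± 0.27 (adjusted p = 0.705, 95% interval -0.96 to 0.31). ST cells were under LT cells by an uncalled -0.54 ± 0.21 (unadjusted p = 0.0312, adjusted p = 0.217). Of 12 other sirtuin and p53 pathway genes none was called by disease, and Cdkn1a and Nampt had an unadjusted p below 0.05 in stem cells. Trp53 itself was at 93.7 to 215.2 RPKM (0.25 ± 0.18, adjusted p = 0.660). Cdkn1a, the p53 target that encodes p21, was at 19.7, 38.1 and 19.8 RPKM in normal HSC and 8.17, 15.8 and 7.73 RPKM in CML stem libraries, which did not overlap but did not pass (-1.22 ± 0.33, adjusted p = 0.147), where 11.4% of all genes lay lower without overlap.

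Hif1a (chr12:75002362-75048517, plus strand) varied least among the 10 genes in relative terms. LT-HSCs had 5.95 and 6.78 RPKM, ST-HSCs 5.24 RPKM and normal KLS- cells 5.48 RPKM, against 5.51 and 5.20 RPKM in LT-CML, 4.61 RPKM in ST-CML and 4.88 RPKM in CML KLS- cells. The CML value was the lower one in each population, as it was without overlap for 14.9% of all genes. No comparison called the difference, which was -0.19 ± 0.15 in stem cells (adjusted p = 0.690, 95% interval -0.55 to 0.16, limma) and -0.04 ± 0.13 in KLS- against stem cells (adjusted p = 0.790). HIF-1α is regulated mainly through stability of the protein, which these data do not measure. Of 7 regulators tested, none was called by disease, Arnt, the partner subunit, being the most abundant at 4.46 to 7.15 RPKM (0.03 ± 0.19, adjusted p = 0.974). Egln3 and Hif3a had an unadjusted p below 0.05. Among 10 target genes, none was called by disease and Egln3 and Slc2a1 had an unadjusted p below 0.05. In KLS- against stem cells 2 of the 10 targets rose and 4 fell, beside 48.7% of all genes called. The risers were Ldha, the lactate dehydrogenase subunit and the most abundant target at 317.6 to 893.0 RPKM (0.98, adjusted p = 0.000431), and Pgk1, a glycolytic kinase (1.0, adjusted p = 0.000229). Slc2a1, the glucose transporter GLUT1, fell by 0.93 (adjusted p = 0.00224), Bnip3, a mitophagy receptor, by 0.66 (adjusted p = 0.0042), Ankrd37 by 0.61 (adjusted p = 0.0222) and Ddit4, an inhibitor of mTORC1, by 0.51 (adjusted p = 0.01004).

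Smo (chr6:29685694-29711365, plus strand) was at 2.67 and 4.19 RPKM in LT-HSCs, 2.78 RPKM in ST-HSCs and 2.16 RPKM in normal KLS- cells. The CML libraries had 4.32 and 3.33 RPKM in LT, 3.20 RPKM in ST and 2.63 RPKM in KLS- cells. LT libraries of both disease states overlapped, and the LT-HSC replicates were 0.50 apart on the log2 scale, more than the disease difference in stem cells (0.14 ± 0.19, adjusted p = 0.826, 95% interval -0.30 to 0.58, limma). Around Smo the pathway was sparse. Of 15 Hedgehog genes, 5 passed the minimum and none of them was called by disease, with 1, Boc, at an unadjusted p below 0.05. Ptch1, the receptor and the most abundant, was at 1.002 to 2.02 RPKM (0.25 ± 0.16, adjusted p = 0.598). The ligand gene Shh was listed at 0 in every library, and Gli1, the transcription factor read as a sign of an active pathway, was at most 0.0274 RPKM.

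**Figure D4:**
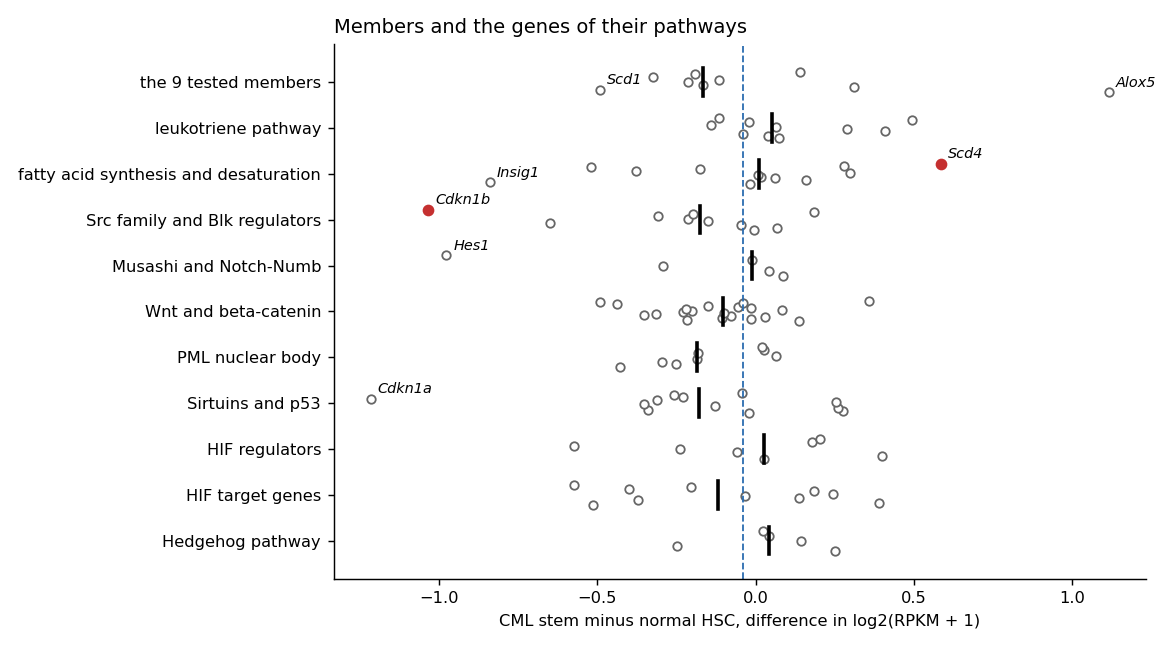
CML stem minus normal HSC differences in log2(RPKM + 1) for the 9 tested genes and the genes of 10 pathway lists (points). Black bars are list medians, the dashed line is the median of all 12561 genes (-0.04), and red points passed an adjusted p of 0.05. Only Scd4 and Cdkn1b are red, and Alox5 lies furthest to the right at 1.12.

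Taking the 9 tested genes as a list, none was called between CML stem cells and normal HSCs (limma, without a cell type term) and 2, Alox5 and Scd1, had an unadjusted p below 0.05, where 12.5% of all genes did. Their median difference was -0.17, beside -0.04 for all genes, with 3 genes above 0 and 6 below. With cell type as a covariate, 543 of all genes were called, Alox5 among them. The pathway lists were not counted in that fit. In KLS- against stem cells 3 of 9 were called, Alox5 higher and Msi2 and Pml lower, beside 48.7% of all genes. No gene was called for a disease effect that differed between KLS- and stem cells, beside 0.0239% of all genes, and none had an unadjusted p below 0.05, where 3.18% of all genes did. Of 98 pathway genes counted once each, 2 (2.04%) were called between CML stem cells and normal HSCs, Scd4 and Cdkn1b, near the 2.34% of all genes, and 14 had an unadjusted p below 0.05. In the LT comparison none of the 98 was called and 11 had an unadjusted p below 0.05.

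For each gene with a mean of at least 1 RPKM, the pair of genes with the most similar log2 profile over the 8 libraries was listed among 6343 or 6344 genes with a mean of at least 5 RPKM, as a description. Libraries of a population share their cells, so these values follow population differences as well. Alox5 was nearest to Fancl (r = 0.963) and Depdc1b (0.931). Msi2 was nearest to Nrip1 (0.997) and Tsc22d1 (0.995), and Pml to Hspbp1 (0.995) and Ptp4a3 (0.979). Scd2 lay nearest to Trim32 (0.978) and Tnip1 (0.969), Ctnnb1 to Ahcyl1 (0.972) and Kpna4 (0.967), Sirt1 to Rbbp6 (0.982) and Dcaf10 (0.976), Hif1a to Sp3 (0.981) and Gnas (0.976), and Smo to Ctnnd1 (0.948) and S100a4 (0.925).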

How the data were processed

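RNA from sorted cells was amplified with an ultra-low-input kit using oligo-dT priming, sequenced as paired 100-base reads and mapped to mm9 with a commercial service, and the authors deposited RPKM for each gene. The annotation and counting rule are not given in the sources used here. RPKM are not counts, so log2(RPKM + 1) was analysed with limma (version 3.58.1, R 4.3.3), using linear models and empirical Bayes variances that follow the expression level. Genes whose 8 values summed to more than 1 RPKM were tested (12561), p-values were adjusted over all of these by Benjamini-Hochberg, and 0.05 was the threshold. A fold change on this scale understates changes of low genes. CML stem cells were compared with normal HSCs (3 against 3), LT-CML with LT-HSCs (all 8 libraries, 6 means, 2 residual degrees of freedom), ST with LT and KLS- with stem cells (disease state as a covariate), and the disease effect in KLS- with that in stem cells. Single libraries were assumed to vary like the LT replicates, and p-values measure the spread between libraries, which may be technical. Exact permutation tests used scipy 1.17.1.

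Depth was estimated from the steps between low RPKM values, found in 67.5% of 5411 low genes (within 0.02 reads of a whole number), and from the exon lengths that GENCODE M1 gives, which is on the mm9 build (NCBI Build 37) that the authors used. Reads and intervals derived from it cover counting error alone, since amplified reads are not independent molecules. Loci and sequences come from that genome. Protein sequences were not used here, and Tcf7l1, Sirt4 and Igll1 were not analysed here.

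The 10 genes and the pathway and marker lists were chosen with earlier results of these data known. Named besides them were list genes that passed in CML stem against normal HSCs or LT-CML against LT-HSCs (at most 4 a list), otherwise the most abundant gene of a list, and the 2 genes of most similar profile. For the nuclear body list the gene so named is not reported here. Alternatives covered the minimum, the pseudocount, scaling, the intensity trend, covariates and each library left out in turn. The comparisons were tested on simulated data.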

Additional observations from a re-analysis of the deposited data

Results flagged for a closer look

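Scd1 moved in opposite directions by disease in LT and KLS- cells. Both LT-CML libraries lay under both LT-HSC libraries, with a difference of -0.72 on the log2(RPKM + 1) scale, while the CML KLS- library lay above the normal KLS- library by 0.10, or 0.302 against 0.214 RPKM, which corresponds to 26 and 21 reads. Each KLS- group has 1 library, and the LT against KLS- difference itself was not tested. The nearest test, of the disease effect in KLS- against that in all stem cells, gave 0.48 ± 0.25 (adjusted p = 0.99998, limma). No group held the 4 libraries needed to look for a library far from the others.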

How the results depend on the processing

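With no minimum on RPKM, 18513 genes were tested and fewer were called, for reasons that were not tested. Calls fell to 193 for CML stem against normal HSCs. They fell to 0 for LT-CML against LT-HSCs and for ST against LT cells (with 0 of the 10 genes called in either), and to 0 for the disease effect in KLS- against stem cells. That last comparison, with 3 calls as reported, also gave 0 with a pseudocount of 0.1, after quantile normalization and after upper-quartile scaling, and 1 without the intensity trend. Cell type as a covariate gave 543 calls between CML stem cells and normal HSCs, 1 of them among the 10 genes. Leaving out LT-HSC library 2 and LT-CML library 2 together, chosen after seeing the data, gave 38 calls there and 1213 for ST against LT cells, and turned Ctnnb1 to 0.017. Quantile normalization turned the KLS- minus stem differences of Scd1 to 0.12 and Hif1a to 0.073, neither called. With each library left out in turn, calls ran from 115 to 294, 6 to 225, 55 to 712, 3178 to 6338 and 0 to 0 for CML stem, LT-CML, ST, KLS- and the difference in disease effect, with 0 to 0, 0 to 1, 0 to 1, 1 to 4 and 0 to 0 of the 10 genes. The differences that changed sign in this way were uncalled: in LT-CML against LT-HSCs Smo (-0.11 to 0.39), Msi2 (-0.35 to 0.024), Scd2 (-0.056 to 0.62) and Sirt1 (-0.67 to 0.0041), in CML stem against normal HSCs Pml (-0.24 to 0.056), in ST against LT cells Scd1 (-0.67 to 0.018), and in KLS- against stem cells Scd1 (-0.42 to 0.17). The cause was not tested. Upper-quartile scaling moved the median of all genes in KLS- against stem cells from -0.08 to -0.14, and quantile normalization to 0.02, where calls were 52.0% higher against 45.6% as reported. Replicate numbers could not pair the LT libraries, since the LT-HSC labels carry ages instead. Granulocyte sums do not match them either, since the high sums differed in makeup. A block on LT-HSC library 2 and LT-CML library 2, chosen after seeing the data, gave 290 calls for CML stem against normal HSCs and 294 for LT-CML against LT-HSCs, with Alox5 at an adjusted p of 0.0359 in the latter and 1 residual degree of freedom, and changed no call among the 10 genes. Depth limits Blk, whose 0 to 14 reads allow no statement on its absence in CML.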
